A study of Mus musculus with 14 samples.

Results

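Astrocytes sorted from the cerebral cortex of young mice were compared with the cells that the same sort left behind. All 6 astrocyte libraries (3 from the upper and 3 from the deep cortical layers) were set against all 4 libraries of GFP-negative cells (2 from each), so 10 of the 14 libraries of the series entered the comparison. Layer was a term of the fit, and results are given for genes on the autosomes. The mice were of the SW strain. All groups, bulk tissue included, came from animals of postnatal day 14. Astrocytes came from animals that carried the Aldh1l1-GFP reporter, and both fractions were freed from microdissected layers with papain. Live cells, which exclude the dye DAPI, were then gated by flow cytometry as GFP-positive (called astrocytes here) or GFP-negative. The GFP-negative fraction is therefore a mixture of all live cells under the gate, not a single cell type. The remaining 4 libraries, of undissociated bulk tissue (2 for each set of layers), give a reference level and entered no test. For upper layer astrocytes and upper layer GFP-negative cells the characteristics field names bulk tissue, against the titles, and the titles were followed. Nothing in the labels says that the libraries of a group came from separate animals, and the p-values below therefore cover only how libraries of a group vary, which may be technical variation.

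Astrocytes are the glial cells that tile the cortex. They take up glutamate and potassium from around synapses, couple through gap junctions, store glycogen, make lipids and serine for neurons, and sheathe blood vessels with endfeet. Aldh1l1, a folate enzyme, is a pan-astrocyte marker, which is why its regulatory sequence is used to drive reporters. Microglia, the resident macrophages of the brain, endothelial cells, the mural cells that wrap vessels, oligodendrocyte lineage cells and neurons are the other main sources of RNA in this tissue.

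The start sites of 5 marker genes are shown because the results are read against them: 3 genes of astrocytes, 1 of microglia and 1 of endothelium. Each run is the 250 bases before the start of transcription, read 5′ to 3′ on the gene's strand from the RefSeq promoter table of GRCm38.p6, with motif matches in capitals.
Gjb6 (chr14:57133612-57133861, minus strand): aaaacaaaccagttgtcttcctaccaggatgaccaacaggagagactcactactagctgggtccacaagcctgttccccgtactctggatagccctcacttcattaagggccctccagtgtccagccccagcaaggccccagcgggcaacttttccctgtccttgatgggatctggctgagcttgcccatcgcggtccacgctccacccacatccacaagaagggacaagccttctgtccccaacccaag
Aldoc (chr11:78322823-78323072, plus strand): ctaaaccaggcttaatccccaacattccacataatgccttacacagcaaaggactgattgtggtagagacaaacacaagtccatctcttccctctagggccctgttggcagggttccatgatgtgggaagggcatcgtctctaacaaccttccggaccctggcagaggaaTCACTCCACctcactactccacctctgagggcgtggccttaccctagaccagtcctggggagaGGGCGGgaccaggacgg
Aldh1l1 (chr6:90550543-90550792, plus strand): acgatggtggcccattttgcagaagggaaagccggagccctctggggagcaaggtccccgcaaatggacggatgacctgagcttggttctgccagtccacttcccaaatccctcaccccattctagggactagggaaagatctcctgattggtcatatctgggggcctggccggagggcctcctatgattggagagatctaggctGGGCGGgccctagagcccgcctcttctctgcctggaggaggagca
Cx3cr1 (chr9:120068297-120068546, minus strand): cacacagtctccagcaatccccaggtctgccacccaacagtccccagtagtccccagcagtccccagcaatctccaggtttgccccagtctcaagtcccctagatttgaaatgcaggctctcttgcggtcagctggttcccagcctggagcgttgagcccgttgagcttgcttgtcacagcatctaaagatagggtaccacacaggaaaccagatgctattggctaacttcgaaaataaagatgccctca
Kdr (chr5:75978456-75978705, minus strand): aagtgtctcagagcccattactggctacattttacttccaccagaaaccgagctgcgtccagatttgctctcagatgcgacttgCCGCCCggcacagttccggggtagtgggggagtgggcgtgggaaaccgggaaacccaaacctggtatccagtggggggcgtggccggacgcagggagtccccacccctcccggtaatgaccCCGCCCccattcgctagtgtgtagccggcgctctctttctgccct
The capitals mark, in Aldoc, a sterol element (TCACTCCAC, 80 bases before the start) and a GC box (17 bases before it), in Aldh1l1 a GC box at 45 bases, and in Kdr GC boxes read on the other strand at 166 and 45 bases. The Gjb6 and Cx3cr1 windows hold none of the 8 motifs searched, nor does another Aldoc window of the table (chr11:78323948-78324197), which is not printed. Those motifs, on both strands, were TATAAA, the Sox motif AACAAT, the NFI palindrome, the PU.1 motif GAGGAAGT, the cyclic AMP element TGACGTCA, the AP-1 motif TGANTCA, the sterol element TCACNCCAC and the GC box GGGCGG. None contains another, although matches can share bases. Shares are of genes that had a window, with a match in any of their windows. The sterol element was found in 2.32% of 1293 such genes called beyond 2-fold higher in astrocytes. It was found in 1.54% of 2535 called beyond 2-fold lower and 1.28% of all 12679 tested genes with a window. PU.1 matches were in 2.09%, 3.79% and 2.91% of the same sets, Sox matches in 7.66%, 6.67% and 6.72%, and GC boxes in 55.9%, 55.7% and 57.9%. These are matches of letters and not sites of binding.

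The reporter's own gene and 5 further markers, on which the cells were not sorted, separated the fractions completely. Values are normalised read counts, that is, reads per gene divided by a size factor for the library. The astrocyte libraries are given by their lowest, median and highest value, and the GFP-negative libraries in the order deep layers 1 and 2, upper layers 1 and 2. Aldh1l1, the reporter's own gene (chromosome 6, 90486427 to 90600203), was at 2559, 3865 and 4516 in astrocytes. The GFP-negative libraries held 94.68, 132.8, 109.0 and 123.0. Each astrocyte library was therefore above each GFP-negative one, by 31.5-fold (the limma log2 difference turned into a fold, as for all folds below that are not lower bounds; log2 difference 4.98, SE 0.157, adjusted p = 9.327e-12), and bulk tissue lay between them at a mean of 917.2. Gjb6, the gap junction protein connexin 30 (chromosome 14, 57123303 to 57133611), was at 18850, 28220 and 46660 in astrocytes and at 554.3, 332.8, 386.2 and 420.0 in the GFP-negative libraries. It had the largest log2 difference (6.07, SE 0.224) of the genes that met the rule for naming by fold. Aldoc, the aldolase of glycolysis in astrocytes, was at 60900, 72560 and 86260 against 1399, 1209, 1069 and 1327. Slc1a2, the main glutamate transporter of the forebrain, was at 706100, 802500 and 1090000 against 23920, 17710, 19160 and 24330. Neither gene overlapped between the fractions, with log2 differences of 5.85 and 5.30. In the other direction, Cx3cr1, the fractalkine receptor of microglia, was at 265.2, 354.4 and 548.8 in astrocytes against 26840, 33140, 23550 and 33830. Kdr, a VEGF receptor of endothelium, was at 55.47, 80.77 and 132.2 against 5135, 9587, 6016 and 8491. Both were lower in every astrocyte library, with log2 differences of -6.30 and -6.31, and both were also below bulk tissue (1578 and 638.3).

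**Figure D1:**
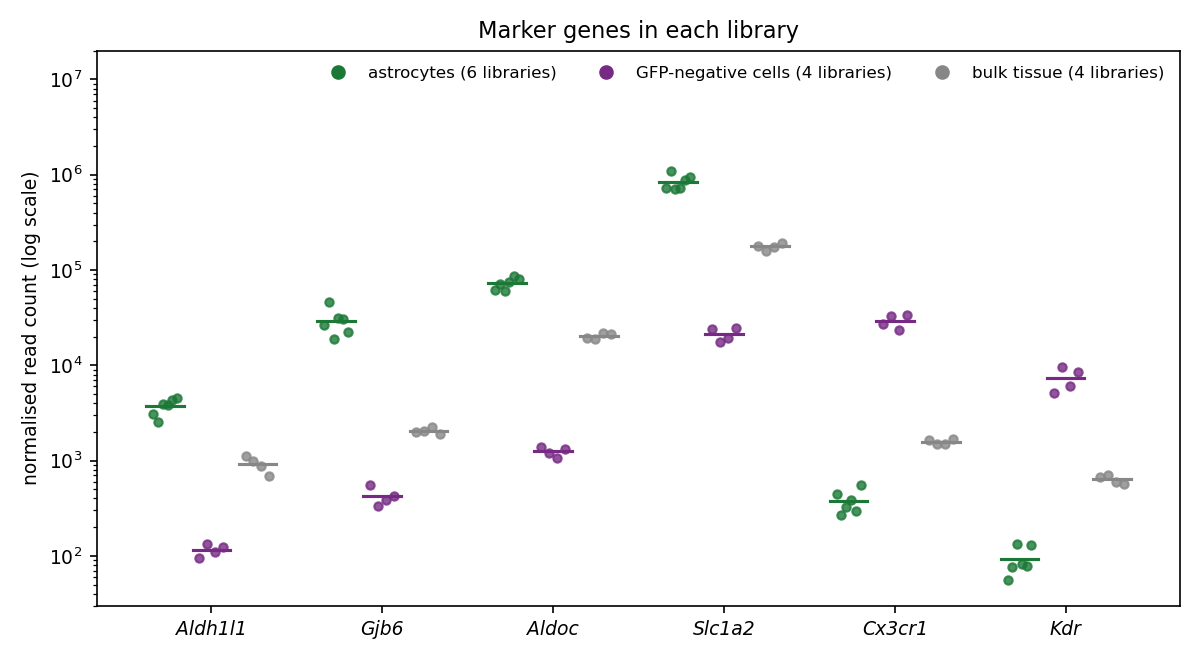
Normalised read count (log axis) of 6 marker genes in each library of astrocytes (green), GFP-negative cells (purple) and bulk tissue (grey), with bars at the means. The 6 astrocyte and 4 GFP-negative libraries do not overlap for any of the 6 genes, and Slc1a2 in bulk tissue (mean 176900) lies between the fractions.

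Most of the transcriptome differed between the fractions. Of 20131 autosomal genes tested, 13366 (66.4%) were called at an adjusted p below 0.05 by limma, 5987 (29.7%) higher and 7379 (36.7%) lower in astrocytes. Against a minimum change of 2-fold, 5933 genes (29.5%) were called, 1966 (9.77%) higher and 3967 (19.7%) lower. The libraries of the fractions did not overlap for 10920 genes (54.2%), of which 4632 were higher in all astrocyte libraries and 6288 (31.2%) lower. Losses in astrocytes also reached further than gains: 377 called genes were lower by 64-fold or more and 3 higher by as much. Summed astrocyte markers were in GFP-negative cells at 2.61% of their astrocyte level. In astrocytes, lists of other cell types were at 0.556% (red blood cell genes) to 95.9% (ependymal and choroid plexus markers) of the GFP-negative level. How far such remaining transcripts bound the largest folds was not tested. The depth was 18226457 to 23550783 reads in genes for astrocytes and 23943702 to 26062144 for GFP-negative cells, and libraries correlated (Pearson's r over tested genes, log2 scale) at 0.954 to 0.981 among astrocytes, 0.962 to 0.982 among GFP-negative cells and 0.746 to 0.815 between the fractions. With libraries scaled to their total reads instead, the median log2 difference of all autosomal genes moved from -0.05 to -0.24. The 100 most abundant genes took 33.0 to 35.3% of astrocyte reads and 23.3 to 26.2% of GFP-negative reads.

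Several of the genes highest in astrocytes by fold act at membranes and in lipid handling. Cldn10, a claudin of tight junctions, was at 4211, 6374 and 8723 against 109.2, 95.48, 89.83 and 89.75. Mlc1, a membrane protein of perivascular endfeet, was at 8193, 9592 and 13630 against 198.3, 211.0, 142.0 and 213.6. Elovl2, an elongase that makes very long polyunsaturated fatty acids, was at 10270, 16580 and 19320 against 237.9, 289.2, 244.9 and 374.3. A lack of overlap was a condition of naming these genes, and their log2 differences were 6.0, 5.76 and 5.71. Dio2, the deiodinase that turns thyroxine into active thyroid hormone, was at 48520, 82010 and 110900 against 1623, 1312, 1568 and 1704. Ttpa, which carries vitamin E, was at 907.6, 1143 and 2923 against 23.47, 27.28, 21.5 and 27.82, and Ppp1r3g, which targets a phosphatase to glycogen, at 1176, 1583 and 2198 against 29.94, 22.73, 37.62 and 28.72. These 3 genes rose by 50.2, 49.2 and 50.6-fold. The neural transcription factor Sox1 (log2 5.79), the BMP receptor Bmpr1b (5.84), the cytochrome P450 Cyp4f15 (5.77), the serine protease Prss56 (5.73), the acetyltransferase Nat1 (5.70), Pdzph1 (5.76) and Klhdc7a (5.60) completed the first 15 genes with Gjb6 and Aldoc.

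By level per kb of exon, which allows genes to be compared with each other, the largest gains were mostly in other genes, with Aldoc (22200 against 383.5 normalised reads per kb) the 1 gene of the first 10 that was also among the first 15 by fold. Malat1, a nuclear noncoding RNA, had a mean of 163200 normalised reads per kb in astrocytes and 37430 in GFP-negative cells. Slc1a2 had 64320 against 1620, and Sparcl1, a secreted protein that promotes synapse formation, 67350 against 6874. Glul, the glutamine synthetase that turns glutamate taken up by astrocytes into glutamine, had 36390 against 7816. The fold changes of these 4 genes ran from 4.53 (Malat1) and 4.60 (Glul) to 39.5 (Slc1a2). Apoe, the lipid carrier, had 33810 per kb against 3094, and Atp1b2, a sodium pump subunit, 30420 against 1539. Mt2, a metallothionein that binds zinc and copper, had 32890 against 712.2, and a fold of 43.6 by limma. Cpe, a carboxypeptidase of peptide hormones, and Ptn, the growth factor pleiotrophin, had 29800 and 27250 against 2078 and 4742.

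**Figure D2:**
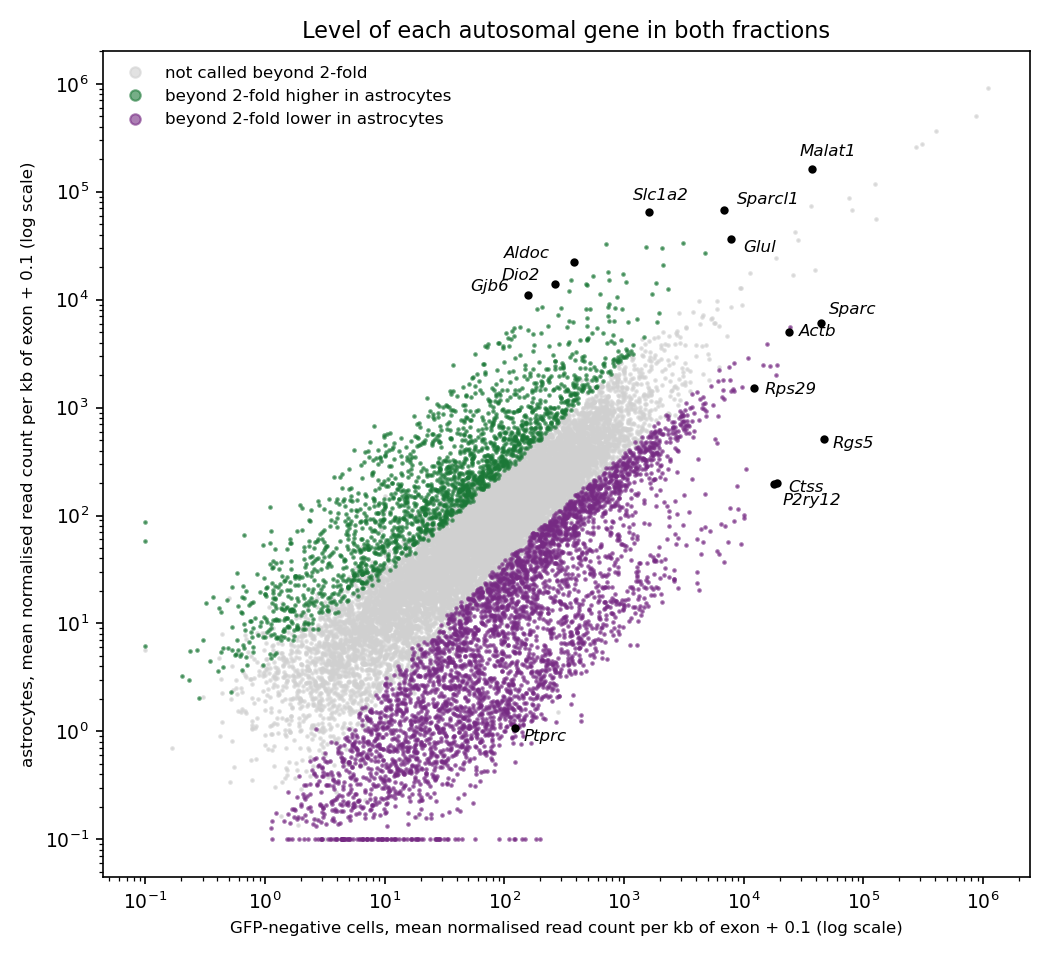
Mean normalised read count per kb of exon, plus 0.1, of each tested autosomal gene in GFP-negative cells (x axis, log scale) and astrocytes (y axis, log scale), with genes called beyond 2-fold higher (1966, green) or lower (3967, purple) in colour. Purple points reach further from the diagonal than green ones, and black points mark genes named in the text.

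Genes of leukocytes, vessels and blood lay at the other end of the ranking. Myo1f, a myosin of immune cells, was at 0, 10.16 and 18.88 in astrocytes against 1404, 1138, 1540 and 1392. Anpep, a peptidase of mural cells, was at 4.36, 14.81 and 52.9 against 2057, 3206, 2679 and 4033. Il10ra, the interleukin 10 receptor, was at 0, 13.65 and 34.16 against 1949, 1821, 1716 and 2098. Each fell in every astrocyte library, with log2 differences of -7.65, -7.64 and -7.46. Ptprc, the leukocyte antigen CD45, was at 2.864, 11.79 and 42.49 against 2632, 2100, 2155 and 2110, and the peptidase Enpep at 2.837, 4.475 and 13.22 against 1081, 983.9, 976.6 and 1100. The G protein subunit Gna15 (log2 -7.45), Dennd1c (-7.42), the fibrillar collagen gene Col3a1 (-7.64), Vtn, a secreted protein of pericytes (-7.33), the oligodendrocyte precursor receptor Gpr17 (-7.33) and the kinase Cdk18 (-7.32) fell as far. The globin genes Hba-a2 (-7.86), Hbb-bt (-7.71), Hbb-bs (-7.54) and Hba-a1 (-7.44) are near-identical copies whose shares of reads are uncertain. By level per kb the largest losses were in Rgs5, a regulator of G protein signalling in pericytes (507.6 against 46800 per kb), Sparc, a matrix protein (6122 against 44180), Ctss, a microglial cathepsin (198.7 against 19120), P2ry12, the ADP receptor of microglia (196.8 against 18070), and Ctsd (5529 against 24580). Actb, B2m, Bsg, Serinc3 and Eef1a1 were the others of the first 10, at 4.0 to 9.60-fold lower.

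Of 20131 autosomal genes tested, 52 had no reads in the 6 astrocyte libraries and 10 or more in each GFP-negative library. No gene had the converse pattern. Fhl5, a LIM protein of smooth muscle, was the most abundant of them, at 115.7, 90.03, 179.7 and 173.2 in GFP-negative cells, which makes it at least 250-fold higher there, with 3 reads over the astrocyte group as the floor. Alb, the gene of serum albumin, was at 63.12, 69.11, 52.97 and 81.67 (at least 119-fold higher), and Cd3e, a subunit of the T cell receptor complex, at 23.47, 33.65, 12.28 and 36.8 (at least 47.5-fold higher). These 3 genes were chosen after their values were seen. All 52 were picked by their lack of reads in astrocytes and their reads in GFP-negative cells. The bounds therefore describe these genes and test nothing. GFP-negative libraries were deeper and kept 2.61% of the summed astrocyte marker level. The part of either in the lack of converse genes was not tested.

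Summed lists of markers show what each fraction held. The 15 astrocyte markers, all of which rose (median log2 5.38, against -0.05 over all autosomal genes), summed to 1130000 to 1650000 normalised reads in astrocytes and 31280 to 39040 in GFP-negative cells, so that the latter held 2.61% of the astrocyte level. All 10 microglia markers fell (median -6.62), from sums of 174800 to 252400 to sums of 1476 to 3688. All 10 endothelial markers fell (-5.94), from 37800 to 53320 to 663.8 to 1306, and all 10 mural cell markers (-6.48), from 225800 to 299000 to 3947 to 7959. In astrocytes these 3 lists were at 1.13%, 2.17% and 2.07% of the GFP-negative level. Of the 8 fibroblast markers 7 fell, leaving 5.29% of the summed level (median log2 -6.53), and all 10 oligodendrocyte precursor markers fell, leaving 8.50% (-5.83). Of the mature oligodendrocyte markers 9 of 10 fell, leaving 9.48% (-4.95). In these 3 lists the median member was further down than the sum. The exception was Aspa, the enzyme that splits N-acetylaspartate, at 467.2, 645.2 and 1262 in astrocytes against 292.9, 76.39, 112.9 and 35.9 (log2 2.78, adjusted p = 1.218e-05). No list was free of reads in astrocytes: over the 12 lists, only 2 members, both neuroblast markers, were at 0 in every astrocyte library. In a mixture such as the GFP-negative fraction, fewer cells of a type and less RNA per cell cannot be told apart.

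Perivascular macrophage markers kept 21.4% of the GFP-negative level. All 8 fell, 5 of them without overlap, and within the deep layers alone 5 were called. Deep layer astrocyte library 1 reached a sum of 1443, while the other 5 held 185.3 to 671.2 and the GFP-negative libraries 2473 to 3342. Bulk tissue held 303.9 to 351.3, so the astrocyte mean of 613.4 was 181% of the bulk mean of 338.0. Neuronal transcripts were scarce in both fractions. The 10 neuron markers summed to 207700 to 328400 in bulk tissue, 5160 to 13040 in GFP-negative cells (3.65% of bulk) and 960.3 to 1801 in astrocytes (0.52%), and 9 of 10 fell in astrocytes. Mature oligodendrocyte, neuroblast and astrocyte markers were at 72.5%, 57.4% and 14.3% of bulk tissue in GFP-negative cells. The other lists were above bulk tissue there. Mural cell and microglia markers reached 2810% and 2400%, red blood cell genes 1270% and fibroblast markers 1210%. Perivascular macrophage, endothelial and oligodendrocyte precursor markers were at 846%, 793% and 569%, and ependymal and choroid plexus markers at 169%. A gene lower in astrocytes was therefore lower than in a mixture rich in such transcripts. Ependymal and choroid plexus markers were low and overlapped between the fractions (262.0 to 371.4 in astrocytes, 300.1 to 362.6 in GFP-negative cells). Of the 8 neuroblast markers 4 were abundant enough to be tested, of which 2 fell and 1 rose, and the list summed to 103.5 to 261.2 in astrocytes and 734.0 to 1188 in GFP-negative cells. The 5 red blood cell genes all fell and summed to 37.06 to 285.4 in astrocytes and 7136 to 28010 in GFP-negative cells. Upper layer astrocyte library 3 was the highest astrocyte library for 8 of the 11 lists of other cell types, and without it the count of genes called was 13019 in place of 13366.

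**Figure D3:**
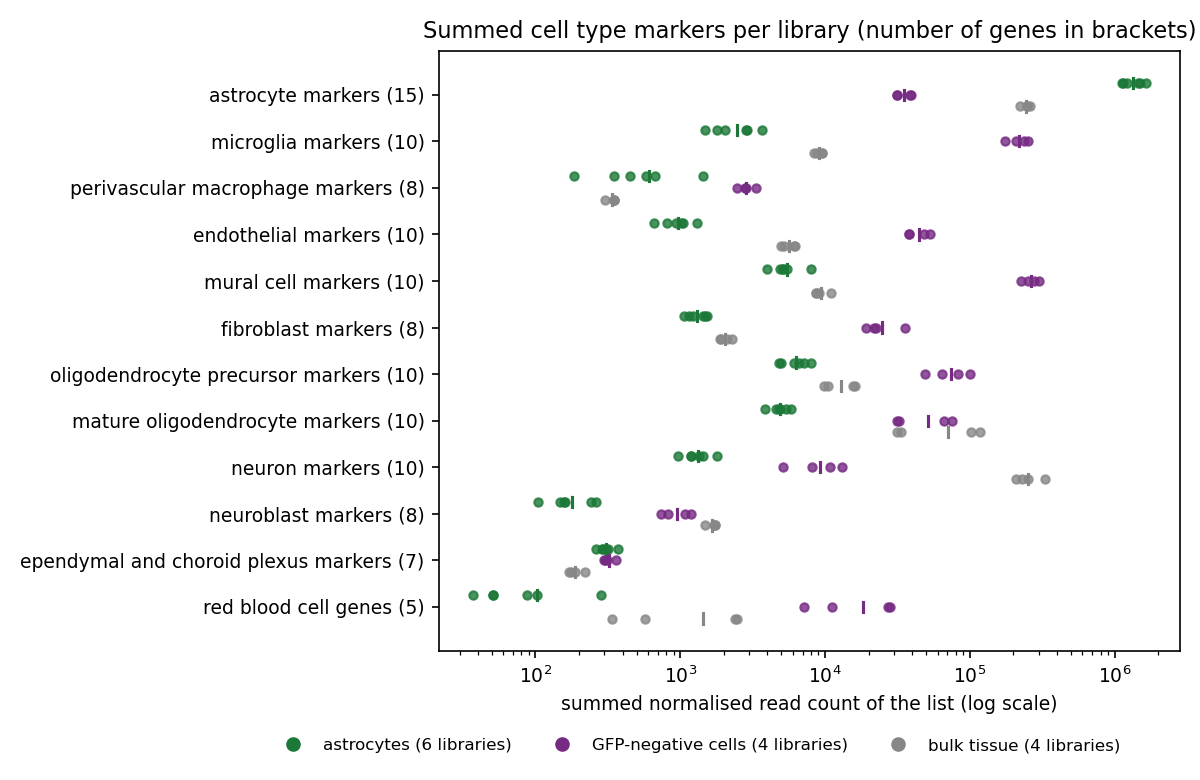
Summed normalised read count (log axis) of 12 marker lists in each library of astrocytes (green), GFP-negative cells (purple) and bulk tissue (grey), with ticks at the means and the number of genes in brackets. Astrocytes and GFP-negative cells do not overlap in 11 lists, and only the ependymal and choroid plexus list overlaps.

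Transcription factors split by lineage. The members of this and the other lists were chosen with earlier results of these data known. Counts of members called therefore describe the lists and give no independent support. Of 28 factors of astrocytes and their progenitors, 25 rose and 2 fell (median 2.65), against 29.7% higher and 36.7% lower over all autosomal genes. Id4, an inhibitor of helix-loop-helix factors, was at 901.4, 1322 and 1651 in astrocytes against 36.42, 37.28, 27.64 and 26.93 (log2 5.30). Rfx4, a winged helix factor of the neural tube, was at 3935, 4442 and 5025 against 184.5, 174.6, 122.1 and 193.0 (log2 4.73), and Emx2, a homeobox gene of the cortex, at 1139, 1502 and 1968 against 38.84, 27.28, 35.32 and 61.93 (log2 5.26). Gli3, the Hedgehog-responsive factor, rose with them (log2 4.68), and none of these overlapped between the fractions. The members that fell were Id1 (log2 -2.24) and the Notch target Hes1 (-1.30), and in bulk tissue Hes1 was lower than in both fractions, with a mean of 170.9 against 559.1 in astrocytes and 1397 in GFP-negative cells. Of 25 factors of other lineages, 24 fell and none rose (median -5.38). Tal1, of blood and endothelium, was at 3.172, 4.332 and 11.8 against 873.2, 1067, 737.0 and 997.2 (log2 -7.26). The endothelial factors Ets1 and Erg (-6.03 and -5.51) fell beside it.

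Genes of serine and glycine metabolism were higher in astrocytes at some steps and lower at others. Of 18 enzymes 9 rose and 4 fell (median 0.84), against 29.7% higher and 36.7% lower over all autosomal genes. Phgdh and Psat1, which open the route from glycolysis to serine, were at 807.1, 1351 and 1850 against 247.6, 173.7, 221.9 and 164.2 and at 12490, 17620 and 21020 against 3064, 4058, 2134 and 3017. Gldc, the decarboxylase of the glycine cleavage system, was at 1458, 1779 and 2463 against 84.97, 99.12, 52.21 and 98.73, and its partner Gcsh rose by 6.21-fold. All of these were higher in every astrocyte library, with log2 differences of 2.70, 2.48 and 4.49 for the first 3. Folate enzymes were among those that fell: the mitochondrial Mthfd1l at log2 -1.64 and Aldh1l2, the mitochondrial relative of Aldh1l1, at -0.66 (not called within the deep layers alone, -0.60).

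Lipid and mitochondrial genes rose broadly. Of 22 genes of fatty acid oxidation and binding, 16 rose and 2 fell (median 1.08). Among all autosomal genes 29.7% rose and 36.7% fell. Acsl6, which activates long-chain fatty acids, was at 20850, 25140 and 27870 against 678.9, 585.6, 704.8 and 699.2 (log2 5.22). The binding protein Fabp5 rose by 13.2-fold and Ppara, the receptor that drives fatty acid oxidation genes, by 9.08-fold. Of 41 cytochrome P450 genes 24 rose and 7 fell (median 0.95, with 4 lower within the deep layers alone), and the family took 0.0909 to 0.116% of autosomal reads in astrocytes against 0.0324 to 0.0369% in GFP-negative cells. Cyp4f14 (5.16), Cyp2j9 (4.04) and Cyp7b1 (3.61), an oxysterol hydroxylase, rose, and the sterol hydroxylases Cyp39a1 (-3.90) and Cyp27a1 (-1.78) fell.

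Of 17 citrate cycle genes 15 rose and none fell (median 1.02), against 29.7% higher and 36.7% lower over all autosomal genes. Cs, citrate synthase, was at 8978, 11600 and 13640 against 2361, 3426, 1978 and 3368 (log2 2.08), and Idh3a, a subunit of isocitrate dehydrogenase, at 1856, 2064 and 2281 against 572.1, 667.5, 495.2 and 728.8 (log2 1.75). Suclg1, a subunit of succinyl-CoA ligase, rose with them (1.99). The share of autosomal reads in the list was 0.226 to 0.27% in astrocytes, 0.113 to 0.139% in GFP-negative cells and 0.186 to 0.223% in bulk tissue. Of 34 complex I subunits 30 rose and none fell (median 0.74, or 0.55 with total count scaling, where 26 rose, and 11 rose within the deep layers alone), among them Ndufa12 (1.80), Ndufs3 (1.34) and Ndufs1 (1.19). The share of complex I in astrocytes (0.152 to 0.188%) was above that of GFP-negative cells (0.0907 to 0.126%), while bulk tissue reached 0.179 to 0.208%. Of 73 mitochondrial ribosomal proteins 48 rose and 2 fell (median 0.56), such as Mrpl15 (1.61), and with total count scaling 35 rose and 3 fell (0.38). Within the deep layers alone 20 of them rose.

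Cytosolic ribosomal proteins moved the opposite way. Of 76 genes 73 fell and 2 rose (median -1.84), and 71 were lower in every astrocyte library than in every GFP-negative one. Over all autosomal genes 36.7% fell, and 31.2% were lower without overlap. Rps29 was at 807.3, 1027 and 1426 against 7426, 10290, 5631 and 10500 (log2 -3.0), Rpl5 at 1184, 1412 and 1811 against 7213, 8618, 5620 and 8811 (log2 -2.39), and Rps23 at log2 -2.52. Rpl7l1, a relative of Rpl7 that takes part in making ribosomes, was higher in every astrocyte library (log2 0.61). The family took 0.318 to 0.405% of autosomal reads in astrocytes, 1.20 to 1.75% in GFP-negative cells and 0.509 to 0.601% in bulk tissue, so astrocytes were also below bulk tissue. Eef1a1, the elongation factor that brings tRNA to the ribosome, fell alongside (log2 -2.0). Under the scaling alternatives the family's median kept its sign, at -2.03 with total counts and -1.80 with TMM.

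Gene classes differed too. Among 696 lincRNA genes 306 rose and 127 fell (median 0.55) and among 996 antisense genes 392 rose and 165 fell (0.55), whereas of 15104 protein-coding genes 4408 rose and 6023 fell (-0.13), and of 1861 processed pseudogenes, many of which copy ribosomal protein genes, 343 rose and 829 fell (-0.55). Reads of an antisense gene cannot be told apart from those of the gene it overlaps, since the strand of counting is not given in the sources used here, and reads of a processed pseudogene may come from the gene it copies.

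Of 13 glycogen genes 9 rose and 2 fell (median 1.75), against 29.7% higher and 36.7% lower over all autosomal genes. Ppp1r3c, a scaffold that brings phosphatase to glycogen, was at 4777, 5691 and 6177 against 174.8, 195.5, 132.8 and 143.6 (log2 5.12). The brain phosphorylase Pygb was at 6050, 7972 and 10030 against 851.3, 1056, 849.1 and 1178 (log2 3.01). Neither gene overlapped between the fractions.

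Antioxidant and metal genes were called in both directions. Of 21 glutathione and antioxidant genes 14 rose and 5 fell (median 1.16), where 3 fell without upper layer astrocyte library 1, deep layer GFP-negative library 2 or upper layer GFP-negative library 2. Prdx6, a peroxiredoxin, was at 11730, 15320 and 17810 against 678.1, 754.8, 512.9 and 662.4 (log2 4.50). Gstm5, a glutathione transferase, and Slc7a11, which imports cystine for glutathione, rose by 16.5 and 5.43-fold. Gpx1, a glutathione peroxidase, fell, at 119.1, 180.0 and 281.0 against 3069, 3255, 2260 and 3832 (log2 -4.05), as did the heme oxygenase Hmox1 (-2.71) and Nfe2l2, which encodes the stress factor NRF2 (-0.74, and not called within the deep layers alone at the same size). For Hmox1 and Nfe2l2 undissociated bulk tissue was below both fractions, with means of 73.76 and 608.9 against 174.1 and 2740 in astrocytes, and the part of dissociation in these levels was not tested. Of 13 metal genes 6 rose and 7 fell, against 29.7% higher and 36.7% lower over all autosomal genes. Slc39a12, a zinc importer, was at 11780, 13750 and 22450 against 442.7, 366.5, 271.8 and 318.6 (log2 5.43), and Slc30a10, a manganese exporter, rose by 5.58-fold. Among the 7 that fell, Slc40a1, the iron exporter ferroportin, was at 46.87, 77.09 and 138.1 against 4818, 5318, 3828 and 5411 (log2 -5.98), and Ftl1, ferritin light chain, at log2 -3.69.

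Genes of endfeet and ion balance were mostly higher, with 14 of 18 up and 4 down (median 3.24). The shares over all autosomal genes were 29.7% up and 36.7% down. Slc4a4, the sodium bicarbonate cotransporter, was at 71780, 88290 and 106700 against 2081, 1854, 1788 and 2395 (log2 5.43). Aqp4, the water channel of endfeet, was at 24080, 29910 and 39010 against 629.6, 759.3, 452.2 and 705.5 (log2 5.60), and Dtna, a dystrobrevin that anchors it, rose by 21.5-fold. The members that fell included other parts of the dystrophin complex, Utrn (log2 -2.20) and Sntb1 (-1.22), and the chloride importer Slc12a2, at 367.3, 459.8 and 563.1 against 9114, 7479, 6727 and 7092 (log2 -4.04).

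Receptors for transmitters and hormones followed, with 21 of 26 higher and 4 lower (median 3.32). Ntsr2, a neurotensin receptor, was at 10400, 12910 and 13690 against 365.8, 294.6, 226.5 and 218.1 (log2 5.52). Grin2c, an NMDA receptor subunit, was at 5749, 6602 and 10630 against 220.1, 168.2, 168.9 and 149.9 (log2 5.31), and S1pr1, the sphingosine phosphate receptor, at 34950, 47110 and 58720 against 2334, 2157, 1959 and 2614 (log2 4.34). The GABA-B subunit Gabbr2 rose by 16.7-fold, with a mean of 16570 in astrocytes and 12910 in bulk tissue. P2ry14 (-4.47), Vipr1 (-5.88) and Lpar1 (-2.94) fell. Of 27 receptor tyrosine kinases 9 rose and 16 fell (median -1.66), against 29.7% higher and 36.7% lower over all autosomal genes. Fgfr3 was at 24550, 27240 and 33530 against 673.3, 590.2, 572.7 and 721.6 (log2 5.46), and Ntrk2, the BDNF receptor, at 59300, 73830 and 94980 against 3226, 3693, 2726 and 3919 (log2 4.43). Egfr, the EGF receptor, rose by 29.6-fold. Of 12 genes for retinoids and thyroid hormone, against 29.7% higher and 36.7% lower over all autosomal genes, 5 rose, such as the thyroid receptor Thrb (3.54) and the retinoic acid enzyme Aldh1a1 (1.84), and 5 fell, such as Aldh1a2 (-6.37), a retinoic acid enzyme of the meninges, and the retinoid X receptor Rxra (-1.28). The count that fell was 3, 2 and 3 without deep layer GFP-negative library 1, deep layer GFP-negative library 2 and upper layer GFP-negative library 2 in turn.

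**Figure D4:**
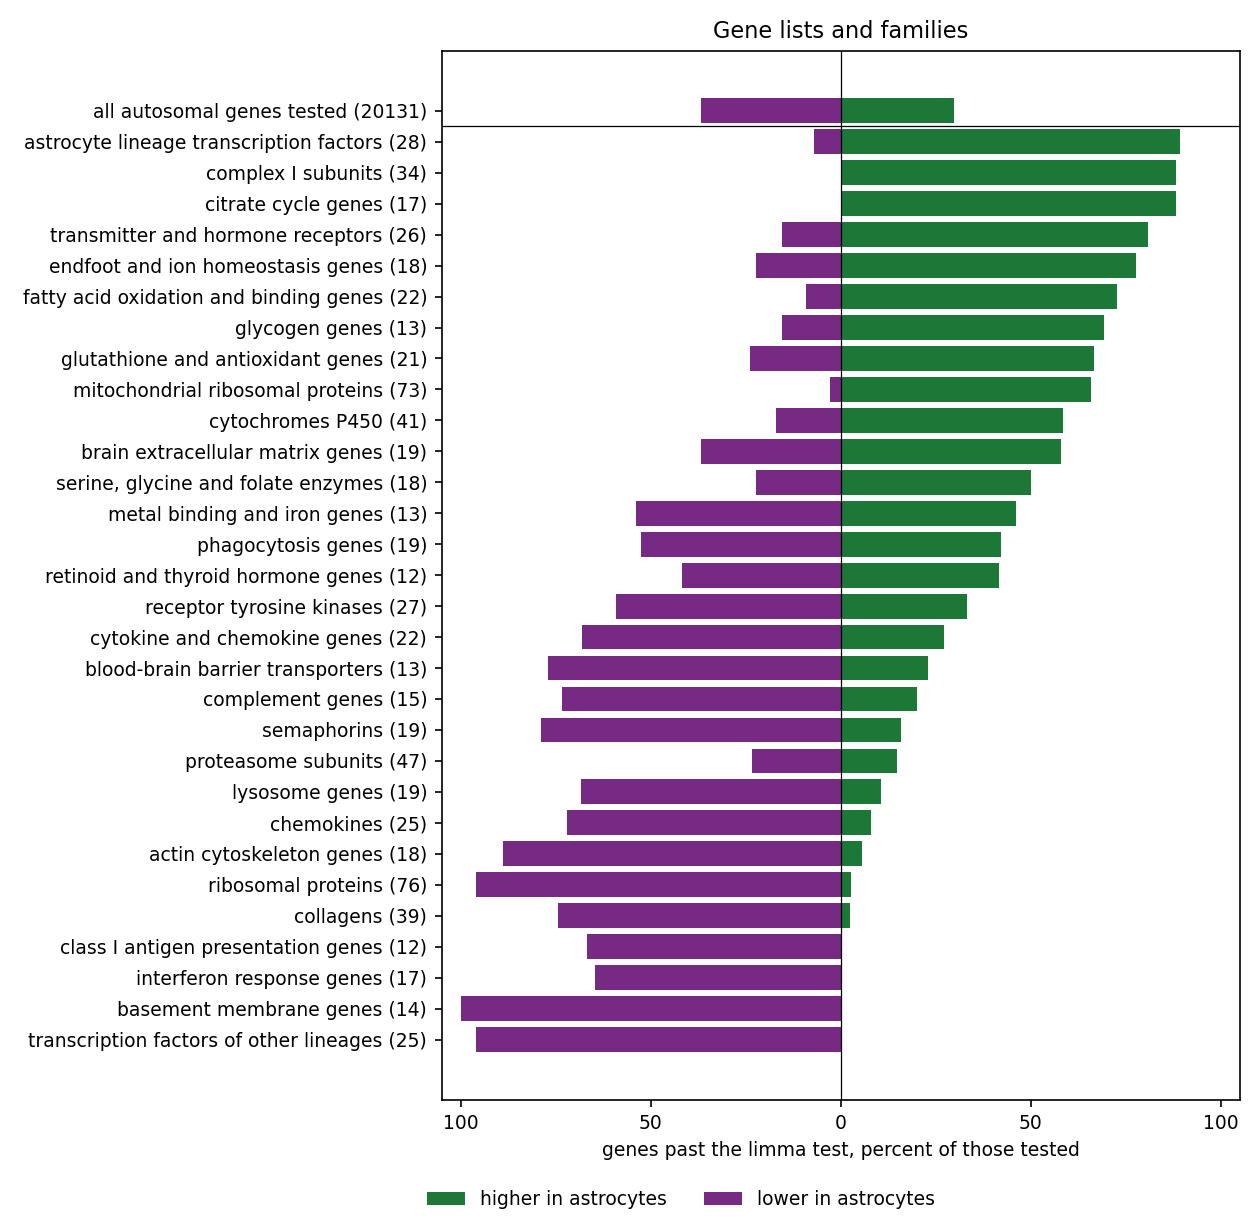
Percent of the tested genes of each list or family (number tested in brackets) that were called higher (green, to the right) or lower (purple, to the left) in astrocytes by limma, with all autosomal genes on top. Astrocyte transcription factors, complex I and the citrate cycle lie furthest to the right, and basement membrane genes and cytosolic ribosomal proteins fell almost throughout. The lists were chosen with earlier results of these data known, so the bars describe them and test nothing.

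Matrix genes went both ways in the brain matrix list and fell throughout the basement membrane list. Of 19 brain extracellular matrix genes 11 rose and 7 fell (median 1.80), against 29.7% higher and 36.7% lower over all autosomal genes. The share that fell was thus near that of all genes. Hspg2 and Agrn, which fell, are members of both lists. Hapln1, which links hyaluronan to proteoglycans, was at 12520, 19160 and 40840 against 458.8, 418.3, 306.3 and 501.7 (log2 5.58), and the cell surface proteoglycans Sdc4 and Gpc5 rose by 23.9 and 19.5-fold. Tnr, the tenascin of oligodendrocyte lineage cells and perineuronal nets, fell, at 56.74, 127.7 and 177.0 against 6813, 9870, 6178 and 7686 (log2 -6.02). All 14 basement membrane genes fell (median -4.11). Nid1, which bridges laminin and collagen IV, was at 119.9, 153.8 and 322.9 against 14460, 20970, 14400 and 22970 (log2 -6.70). Lamc3 (-6.43), Hspg2 (-3.49), Col4a2 (-4.86) and Col4a1 (-4.60) fell too, and of 39 collagen genes 29 fell and 1 rose (median -2.78), with 0.0243 to 0.0327% of autosomal reads in astrocytes and 0.219 to 0.382% in GFP-negative cells.

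Immune genes were mostly lower, with a few of the opposite sign. Of 15 complement genes 11 fell and 3 rose (median -4.46), against 36.7% lower and 29.7% higher over all autosomal genes. C1qb, of the recognition molecule made by microglia, was at 35.46, 107.8 and 192.4 against 10260, 10650, 9126 and 13730 (log2 -6.85). Those that rose furthest belong to the classical pathway: C2 was at 223.1, 303.0 and 383.0 against 27.51, 30.92, 36.85 and 45.77 (log2 3.10) and C4b at 71.94, 108.5 and 148.0 against 13.76, 34.56, 39.16 and 35.0 (log2 1.85). Of 12 class I antigen presentation genes 8 fell and none rose (median -0.89), with B2m at 1353, 1459 and 3116 against 16600, 16500, 12990 and 18080 (log2 -3.26) and the immunoproteasome subunit Psmb8 at log2 -4.53. Of 17 interferon response genes 11 fell and none rose (median -0.83), such as Irf1 (-3.50) and Ifih1 (-2.83).

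Cytokine genes contained the largest gains among immune lists, with 6 of 22 higher and 15 lower (median -4.02). The share that rose was near the 29.7% of all autosomal genes, of which 36.7% fell. Cxcl14, a chemokine, was at 3362, 4468 and 6279 in astrocytes against 105.2, 149.1, 88.29 and 145.4 (log2 5.23), and Il18, of the interleukin 1 family, at 3904, 4344 and 5067 against 514.7, 458.3, 395.4 and 385.0 (log2 3.33). Il33 rose by 14.2-fold. Cxcl12, a chemokine of vessels, fell, at 129.0, 170.9 and 252.4 against 11810, 10270, 13010 and 12670 (log2 -6.10). Ccl4, a chemokine of activated microglia, was at 8.511, 12.06 and 13.37 against 1117, 555.6, 1110 and 744.0, and at a mean of 0.231 in bulk tissue, where cells had not been dissociated. The part of dissociation in this difference was not tested. Of 8 Toll-like receptor genes 7 fell, such as Tlr9 (-6.99) and Tlr12 (-6.90), and Tlr3, which senses double-stranded RNA, rose, at 7482, 9235 and 21540 against 1985, 1828, 1262 and 1499 (log2 2.65).

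Of 19 engulfment genes 8 rose and 10 fell (median -1.15), against 29.7% higher and 36.7% lower over all autosomal genes. Megf10, an engulfment receptor of astrocytes, was at 6299, 7949 and 10200 against 230.6, 219.2, 148.9 and 243.2 (log2 5.29). Mertk, which binds dying cells and synapses through bridging proteins, was at 22230, 26140 and 33510 against 8973, 6909, 8781 and 7801 (log2 1.71), and Mfge8, a bridging protein, rose by 5.87-fold. Trem2, the lipid receptor of microglia, fell (20.71, 32.14 and 51.79 against 2462, 3344, 2158 and 3444, log2 -6.37), as did Elmo1 (-6.11) and Stab1 (-4.29). Of 19 lysosome genes 13 fell and 2 rose (median -1.46). Laptm5, a lysosomal membrane protein of leukocytes, was at 114.4, 156.1 and 324.0 against 17560, 23260, 18440 and 31170 (132-fold lower), and the mannosidase Man2b1 fell by 14.0-fold. The lysosome list took 0.377 to 0.497% of autosomal reads in astrocytes, below the 1.13 to 1.38% of GFP-negative cells but above the 0.178 to 0.216% of bulk tissue. Cd63, a tetraspanin (1.25), and Psap, the saposin precursor (0.72), were the members that rose, although Psap was not called within the deep layers alone (0.54).

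Transporters of the blood-brain barrier fell in 10 of 13 cases (median -4.23), against 36.7% lower over all autosomal genes. Abcb1a, the efflux pump P-glycoprotein, was at 29.79, 46.03 and 49.65 against 2689, 2670, 2576 and 2395 (log2 -5.89). Slco1a4, Slc22a8 and the taurine transporter Slc6a6 fell by 60.3, 51.2 and 66.2-fold. The remaining 3 rose. Slco1c1, which carries thyroxine, was at 18360, 26550 and 33930 against 10240, 12870, 9439 and 11470 (log2 1.21), Mfsd2a, which carries docosahexaenoic acid, at 8336, 11920 and 14720 against 4705, 8520, 4162 and 7444 (log2 0.92), and Slc3a2 at log2 0.83. For Mfsd2a the highest GFP-negative library overlapped the lowest of astrocytes. Within the deep layers alone Mfsd2a (0.60) and Slc3a2 (0.55) were not called. All 3 were higher in astrocytes than in bulk tissue, where their means were 2261, 1395 and 2049.

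Actin genes fell in 16 of 18 cases (median -2.30), against 36.7% lower and 29.7% higher over all autosomal genes. Acta2, smooth muscle actin, was at 32.62, 45.7 and 70.53 against 2943, 3223, 4285 and 5659 (log2 -6.37), and Tmsb10, which binds actin monomers, at 41.42, 56.22 and 68.32 against 1890, 3456, 1484 and 3032 (log2 -5.39). Ezr, which encodes ezrin, a linker of actin to the membrane of fine astrocyte processes, was the 1 member that rose, at 11710, 18050 and 23490 against 494.4, 484.7, 477.5 and 602.2 (log2 5.03). Among 19 semaphorin genes, which guide axons, 15 fell and 3 rose (median -1.94), with Sema5a at log2 -5.05 and Sema3c at -4.50. The 47 proteasome subunits had a median of -0.05, with a count of calls that varied with the scaling, and Psmb8, Psmb9 (-5.55) and Psme1 (-2.10), which belong to the immunoproteasome and its regulator, fell.

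Related genes were then compared within each library, where scaling between libraries has no part. The ratios are of read counts and not of levels per kb, so their sign does not say which gene of a pair was more abundant. Of 24 pairs, 23 had log2 ratios that did not overlap between the 6 astrocyte and 4 GFP-negative libraries (two-sided exact permutation test, p = 0.0095, the smallest that 210 splits allow, and 0.0099 adjusted over the 24). The pairs and their order were chosen with results of these data known. Their common direction is set by that choice, and their separation may be too. The count of 23 and its p-values therefore describe the pairs and give no independent support. The glutamate transporter pair Slc1a2 to Slc1a1 had a mean log2 ratio of 13.16 in astrocytes and 2.57 in GFP-negative cells. Inward rectifier potassium channels Kcnj10 to Kcnj8 had 10.23 and 0.04, where Kcnj8 is the form of mural cells. For the factors Sox9 and Sox10, of astrocytes and oligodendrocyte lineage cells, the ratio was 7.72 in astrocytes and -2.99 in GFP-negative cells. In metabolism, Aldoc to Aldoa had 4.20 in astrocytes and -1.21 in GFP-negative cells, and the hexokinases Hk1 to Hk2 had 2.62 and -1.19. Ldhb to Ldha, subunits of lactate dehydrogenase, had 0.97 (0.70 to 1.42 over libraries) against -0.97 (-1.11 to -0.79). The glutathione peroxidases Gpx4 to Gpx1 had 1.19 and -2.45, and Tgfb2 to Tgfb1 6.42 and -0.98. Smaller shifts were seen in Cpt1a to Cpt1c, of mitochondrial fatty acid import (3.80 against 3.10) and in Mertk to Axl (2.35 against 1.71). Metallothioneins Mt3 to Mt2 were the pair that overlapped (-5.76 against -5.08, p = 0.3619 by the exact test).

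**Figure D5:**
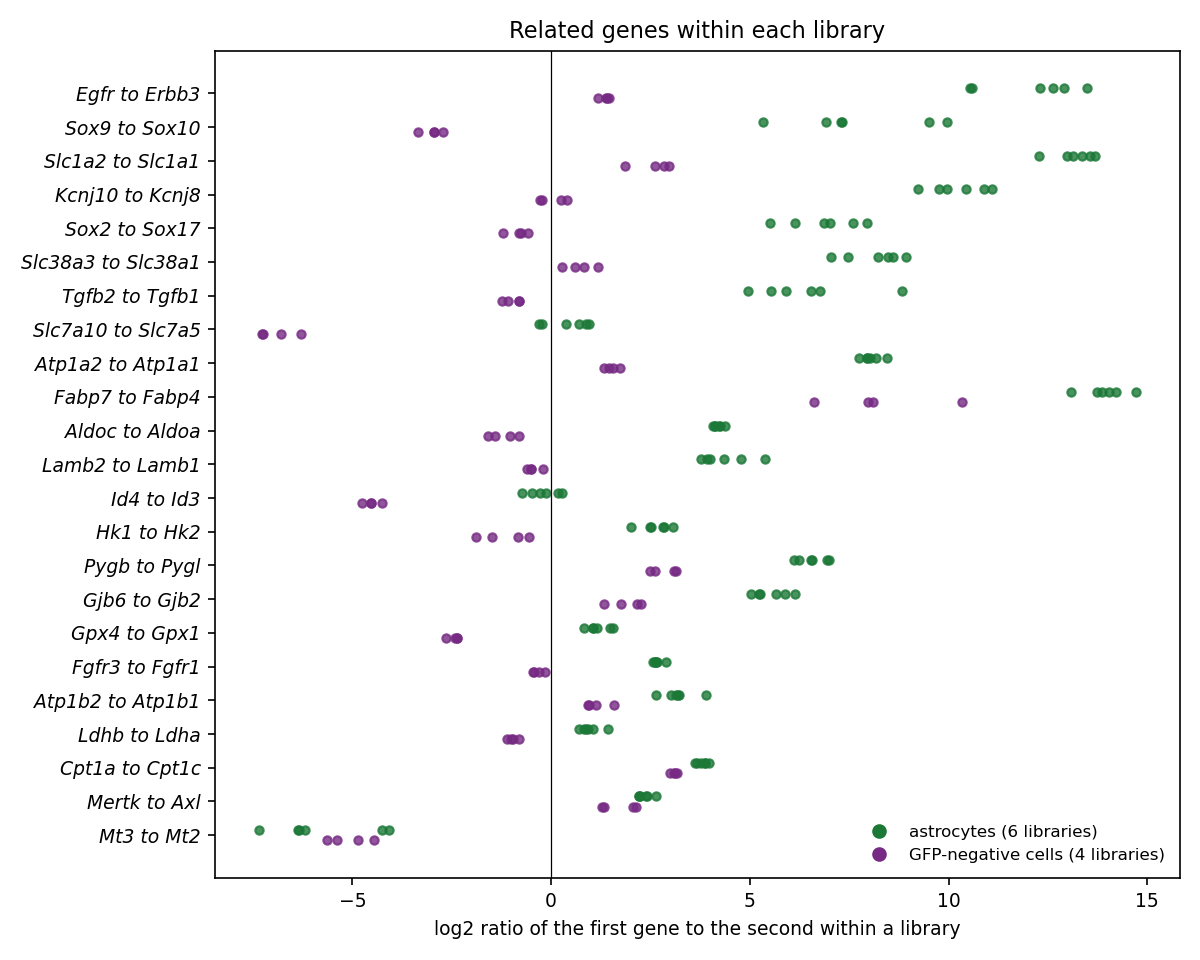
Log2 ratio (x axis) of 2 related genes within each library of astrocytes (green) and GFP-negative cells (purple), for 23 of the 24 pairs, ordered by the difference of the means. The fractions overlap in the lowest pair, Mt3 to Mt2, and lie apart in the others drawn.

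Whether the difference between fractions itself differed between the layers was tested with an interaction term. No autosomal gene was called by limma (0.0% of 20131, smallest adjusted p = 0.622), and 828 (4.11%) had an unadjusted p below 0.05. The edgeR quasi-likelihood test on recovered reads also called none, and DESeq2 called 11. With the replicate number as a block, limma called none, and 1554 had an unadjusted p below 0.05. That number was 1278, 348, 380 and 2432 without deep layer astrocyte library 2, deep layer GFP-negative library 2, upper layer GFP-negative library 1 and upper layer GFP-negative library 2 in turn, each with no gene called. The first 6 genes of the rule were Reln, the extracellular guide of cortical layering, Cmtm5, Fgfr2, Adcy8, Kirrel3 and Col1a1. Reln was at 87.19, 95.42 and 108.6 in astrocytes, and in GFP-negative cells at 60.69, 64.57, 266.4 and 263.0, so that both upper layer libraries were above both deep layer ones. Its interaction, the upper minus the deep layer value of the log2 difference between fractions, was -2.22 by DESeq2 (adjusted p = 0.000178). Fgfr2, an FGF receptor, had GFP-negative values of 1058, 955.7, 544.3 and 564.5 and Cmtm5 of 408.7, 371.0, 182.7 and 220.8, here with the deep layers higher, while astrocytes were at 8211 to 13510 and 1933 to 2778. Their interactions by DESeq2 were 1.35 (adjusted p = 0.00101) and 1.34 (0.00138).

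Whether counting used the strand is not given in the sources used here. Exons of another annotated gene overlap those of Abcb1a, Acsl6, Aldh1l1, Aldh1l2, Aldoa, C2, Cd3e, Cdk18, Col3a1, Col4a1, Col4a2, Cpt1c, Ctsd, Cx3cr1, Dennd1c, Dio2, Dtna, Eef1a1, Elmo1, Emx2, Ezr, Fgfr2, Fgfr3, Ftl1, Gli3, Glul, Gpc5, Gpr17, Grin2c, Gstm5, Hk1, Id4, Irf1, Klhdc7a, Lamc3, Malat1, Mt2, Ndufs1, Ndufs3, Nid1, P2ry12, Psmb8, Psmb9, Psme1, Reln, Rpl5, Serinc3, Slc1a1, Slc1a2, Slc30a10, Slc6a6, Sox1, Stab1, Tgfb2, Tlr3 and Tnr, so their values are uncertain to the extent that reads of the neighbour were counted with them.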

How the data were processed

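RNA of sorted cells and bulk tissue was amplified (NuGEN SPIA) and sequenced single-end, per the labels' protocols. The build was GRCm38, and the tools named are TopHat2 2.0.11, HTSeq 0.6.1p1, CASAVA and DESeq2, per the submitters' processing notes. The deposited table holds a normalised signal, read counts per gene divided by 1 size factor per library by the authors. Within 1e-06 of the step, 100% of values were whole multiples of 1 read, which gave back the reads and the depth. The strand setting and lane assignment are not given in the sources used here.

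The main test was limma 3.58.1 (trend, robust; R 4.3.3) on log2(value + 1), with fraction and layer as terms, over 10 libraries and genes with a value of 10 in 2 libraries. Calls had a Benjamini-Hochberg adjusted p below 0.05 over all genes kept, autosomal or not, and treat tested against 2-fold. Because 1 was added, log2 differences of low genes are too small. Folds are 2 to the power of these differences, lower bounds apart, and so can differ from the ratio of the means, which are of normalised reads. edgeR 4.0.16 (quasi-likelihood) and DESeq2 1.42.0 on the recovered reads were alternatives. Paralog ratios had exact permutation tests (scipy 1.17.1). Summed marker levels are described without a test. Simulated counts of 21086 genes with this comparison's libraries were also tested. There limma recovered 76 of 100 genes changed 2-fold and 100 of 100 changed 4-fold, and called 6 unchanged genes. Only these genes were changed, as many up as down and with known size factors, whereas 13366 autosomal genes were called in the data. The simulation therefore does not give the rate of false calls among the 13366. Symbols, exons and coordinates came from GENCODE M21 (GRCm38), which matched 32007 of 32830 genes, 29994 of them autosomal.

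Named genes were autosomal, with a symbol, protein-coding or lncRNA, called beyond 2-fold, without overlap and with a mean log2 of at least 5: the first 15 per direction by log2 difference and the first 10 by difference per kb, then up to 4 members per list by p and up to 3 called against its majority, the paralog pairs, 6 interaction genes and 6 markers. The members, lists and pairs were chosen with earlier results of these data known. Some genes are not reported here.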

Additional observations from a re-analysis of the deposited data

Results flagged for a closer look

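For each value in the text with 4 or 6 libraries per fraction, the highest and lowest library were compared with the rest, and 37 of 408 sets of values had a library far from the others. Chance alone flags about 1 in 20 sets. Deep layer astrocyte library 2 was the one in 16 of them and upper layer astrocyte library 3 in 11. Scaling turned each read of deep layer astrocyte library 2 into 1.418 normalised reads, against 0.9548 to 1.18 in the other astrocyte libraries. The part of this scaling in the flags was not tested, nor was any other cause.

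Deep layer astrocyte library 2 was the highest astrocyte library for Ttpa (2923, the others 907.6 to 1234), Tlr3 (21540), Sox10 (215.6, the others 7.639 to 48.39), Thrb (3163), Egfr (40040), Atp1b2 (235600), Hapln1 (40840), B2m (3116), Bmpr1b (5407), Cyp2j9 (6057), Aspa (1262), Gna15 (41.13, the others 0 to 3.306), Nat1 (568.8), Ndufa12 (2957) and Nfe2l2 (4037). It was the lowest for Ccl4, at 8.511 against 11.63 to 13.37. Of the genes where it was highest, Sox10, B2m, Gna15 and Nfe2l2 fell in astrocytes and the others rose.

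Upper layer astrocyte library 3 held the highest values of genes of blood and vessels. Its red blood cell genes summed to 285.4, the others to 37.06 to 102.6, with Hba-a1 at 52.9, Hbb-bs at 113.5 and Hbb-bt at 82.65. The mural genes Anpep (52.9), Kcnj8 (88.16) and Rgs5 (4073), the basement membrane gene Nid1 (322.9), the peptidase Enpep (13.22), the endothelial transporter Slco1a4 (116.8) and the precursor receptor Gpr17 (396.7) were also highest there. Each of these genes was lower in every astrocyte library than in any GFP-negative library.

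Upper layer astrocyte library 2 stood apart for Grin2c (10630, the others 5749 to 7120) and Cyp39a1 (18.53, the others 3.819 to 6.612), and deep layer astrocyte library 1 for Tal1 (11.8). Among GFP-negative cells, deep layer library 1 was highest for Egfr (925.0), Klhdc7a (84.97) and Ptprc (2632), upper layer library 2 for Ezr (602.2), and upper layer library 1 lowest for Gpx4 (438.4), Gstm5 (310.9) and Ppara (49.9).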

How the results depend on the processing

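The 13366 genes called became 10129 to 14395 under the other pseudocounts, filters, scalings, tools, terms and subsets of layers, and 12091 to 13635 when each library was left out. The 5933 called beyond 2-fold became 4546 to 6896 and 5341 to 6002. The 23 paralog ratios and 11 marker lists without overlap kept those numbers under each alternative run for them. The interaction called 11 genes with DESeq2 and 1 in a fit of all 14 libraries (Reln, -2.19, adjusted p = 0.0285), and 0 otherwise. The cause was not tested.

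Adcy8 turned from -1.15 to 0.52 and Reln from -0.41 to 0.68 within the deep layers alone. Cpt1c (0.03) turned to -0.15 with total count scaling and to -0.04 within the deep layers, and lay between -0.05 and 0.15 when each library was left out, below 0 without GFP-negative library 1 of the deep (-0.05) or the upper layers (-0.01). None of these 3 main values was called. Of the 188 genes named and called, 8 lost their call under at least 1 alternative.

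Replicate numbers gave little sign of pairing between the fractions. Correlations of deviations from group means between same-numbered libraries of the 2 fractions in 1 layer were 0.138, 0.02, 0.19 and -0.017. Pairs of unlike number are not given here as a baseline. Across layers within a fraction, same-numbered libraries correlated at 0.22, 0.157 and 0.187 in astrocytes and at 0.494 in GFP-negative cells. With 2 libraries per GFP-negative group, both numbers give this same value by construction. With a replicate block, 13758 genes were called (13053 with a block for each layer and number), and 6061 and 5793 beyond 2-fold, while the interaction with the block called 0.

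Depth sets a floor: with 3 reads as the limit, a gene at 0 in astrocytes gives only a lower bound on its fold.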
